A study of Mus musculus with 8 samples.

Results

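The genes described here are 42 genes of the actin cytoskeleton and of serum response factor (SRF), picked by symbol as a list of actins, actin-binding proteins, adhesion proteins, myosin II subunits and Srf itself. All 42 were found by gene symbol among the 23356 genes of the deposited RNA-seq table, and 40 of them reached 1 FPKM (fragments per kilobase of transcript, scaled to the depth of a library) in at least 1 group. The table comes from 8 libraries of bone marrow-derived dendritic cells (BMDCs), 2 in each of 4 groups. Control WT DCs came from WT mice and were left untreated, and treated WT DCs received 100 nM ansamitocin-P3, a maytansine-type drug that binds tubulin and takes microtubules apart, for 5 h. Control and treated GEF-H1-/- DCs were their counterparts from Arhgef2-/- mice, which carry a knockout of the gene for GEF-H1. All animals had a C57BL/6 background (C57BL/6N in the study's methods) and, by those methods, were adult and sex-matched. Every culture was grown for 6 days in GM-CSF and IL-4 (10 ng/ml each), so the cells are a mixture rather than a single sorted type, and the number of mice behind a library is not given in the sources used here.

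Each value is 1 FPKM per gene and group, in which Cuffdiff merged both libraries. It comes with a 95% interval from Cuffdiff, which is the error given below. No spread between libraries and no read depth can be derived from such values, so no difference was tested and no p-value is given. The median width of the interval was 44.1% of the FPKM for the 40 genes in control WT DCs and 45.2% in treated WT DCs. A change is the log2 ratio of FPKM + 1 between 2 groups. It was counted past a log2 of 1, past a smaller limit of 0.5, and by whether the 2 intervals were apart. Arhgef2 was at 42.3 FPKM (34.5 to 49.98) in untreated and 45.9 (36.9 to 54.9) in drug-treated WT DCs and at 4.59 (3.54 to 5.63) and 4.16 (3.22 to 5.11) in the knockout, the direction its label gives. All 7 DC markers listed reached 1 FPKM in at least 1 group. H2-Ab1, at 506 FPKM or more in every group, and Itgax, at 102 or more, were present throughout. Zbtb46 was at 14.8, 22.1, 9.09 and 13.2 FPKM in control WT, treated WT, control GEF-H1-/- and treated GEF-H1-/- DCs. Flt3 was low, at 2.10, 1.07, 2.63 and 2.18 FPKM in the same order, and its WT intervals were apart. Ccr7 was at 258, 602, 234 and 405 FPKM, with intervals of control and treated cells apart in both genotypes.

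Actin exists as free monomers and as filaments, and a large set of proteins decides how fast monomers are added, where filaments branch, how they are bundled and how myosin pulls on them. DCs rely on this network to take up antigen, to migrate and to hold on to T cells. The same network feeds back on transcription. Cofactors of the MRTF family bind actin monomers, and when monomers are used up they enter the nucleus and join SRF on CArG boxes, short A/T-rich elements framed by CC and GG, in promoters of actin and actin-binding genes. GEF-H1 is held inactive on microtubules and, once released, promotes the assembly of actin filaments and their contraction.

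CArG boxes are shown first because SRF is known to bind them and because they are found from sequence alone, without any use of the expression values. RefSeq promoter windows (GRCm38.p6, 250 bases before to 50 bases after each start) were available for 40 of the 42 genes (all but Actb and Diap1) and were searched for the CArG box, whose pattern reads the same on both strands. It occurred in 6 of these genes, namely Actg1, Vcl, Srf, Cnn2, Myl6 and Myl9. Across the genome it occurred in 1.81% of genes with such a window, and in 1.53% of the 8519 genes tested for expression that had one. Parts of 5 windows are given 5′ to 3′ on the strand of the gene, with the CArG boxes in capitals, and all end before the annotated start.
Actg1 (chr11:120348536-120348625, minus strand): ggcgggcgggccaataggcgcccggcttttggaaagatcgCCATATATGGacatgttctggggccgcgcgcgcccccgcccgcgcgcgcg
Vcl (chr14:20929148-20929220, plus strand): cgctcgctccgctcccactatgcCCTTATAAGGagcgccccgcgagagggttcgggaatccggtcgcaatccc
Srf (chr17:46556175-46556284, minus strand): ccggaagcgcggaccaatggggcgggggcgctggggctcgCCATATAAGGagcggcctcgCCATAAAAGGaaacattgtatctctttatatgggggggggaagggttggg
Cnn2 (chr10:79988504-79988593, plus strand): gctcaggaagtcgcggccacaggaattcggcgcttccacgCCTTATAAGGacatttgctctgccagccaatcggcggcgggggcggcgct
Myl6 (chr10:128493010-128493099, minus strand): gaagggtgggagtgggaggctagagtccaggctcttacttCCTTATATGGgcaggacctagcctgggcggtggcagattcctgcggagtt
The box began 90 bases before the start in Actg1, 227 in Vcl, 56 in Cnn2 and 50 in Myl6 (counted from a second start of that gene), while Srf, whose own promoter is a known SRF target, held a pair of boxes beginning 82 and 62 bases before it. A match describes the letters of the window only, and boxes elsewhere in a gene were not searched.

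These genes are among the most abundant mRNAs of the cells. In control WT DCs, 37 of the 40 lay at or above the 90th percentile of the 11397 genes tested, and 32 at or above the 95th. Tmsb4x, which encodes thymosin β4, the main buffer of actin monomers, was the highest of them at 8237 FPKM (5038 to 8759) and ranked 5th of all genes tested. The cytoplasmic actins followed at 3076 FPKM for Actb and 2615 for Actg1, whose intervals (2231 to 3901 and 1995 to 3235) overlapped widely. Pfn1 at 1479, Cfl1 at 1459, Tmsb10 at 1187 and Myl6 at 1094 FPKM came next, also with overlapping intervals between neighbours. The lowest that passed the filter were Vcl at 24.0, Srf at 18.6 and Tpm1 at 17.2 FPKM. Below the filter stood Tpm2, from 0.158 to 0.866 FPKM over the 4 groups, and Myl9, from 0.188 to 0.320 FPKM, the muscle-type tropomyosin and myosin light chain of the list. Values just inside and just outside the limit of 1 FPKM were thus far apart.

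**Figure D1:**
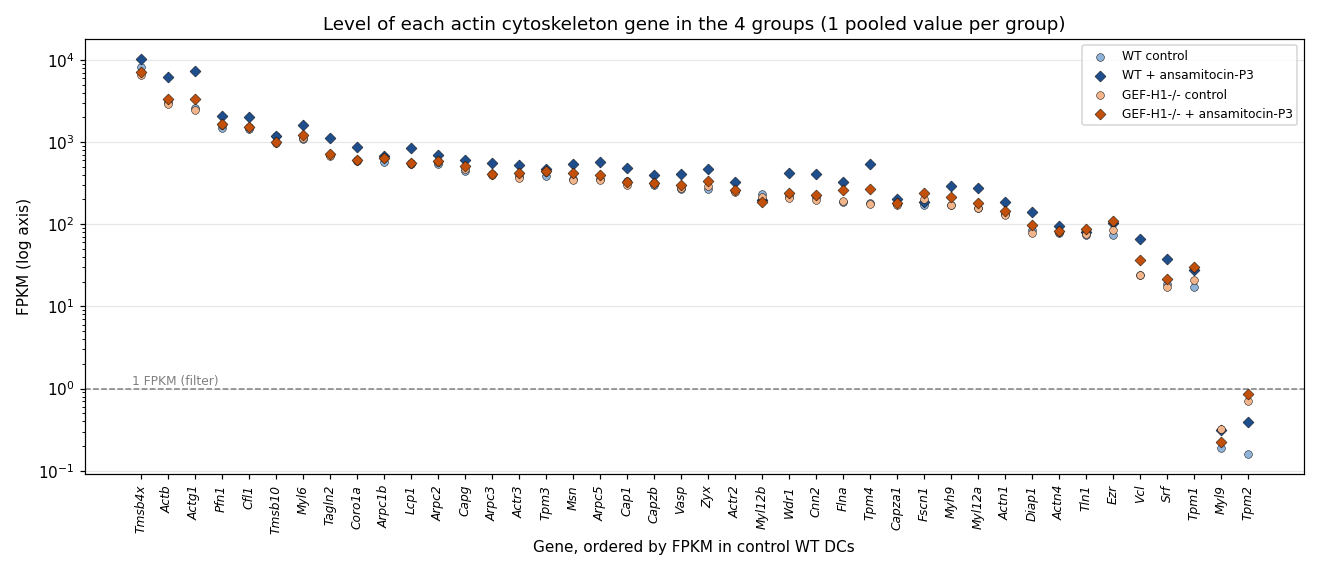
FPKM (log axis) of the 42 genes in the 4 groups, ordered by control WT DCs, with 1 pooled value per group (circles, control; diamonds, treated). The dark blue diamonds of treated WT DCs stand above the other symbols for most genes, and only Myl9 and Tpm2 lie under the dashed line at 1 FPKM.

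Ansamitocin-P3 was accompanied by higher levels of nearly the whole set in WT DCs. The FPKM of 38 of the 40 genes was higher in treated than in control WT DCs (95% against 50.1% of all genes tested), and that of 33 was also higher after every group was rescaled to a common FPKM sum. The median log2 change was 0.55 (quartiles 0.37 and 0.79), while over all 11397 genes tested it was 0.00 (quartiles -0.26 and 0.26). All genes tested were not matched to the set by level, although 37 of the 40 lay at or above the 90th percentile of control WT FPKM. This holds for every comparison with all genes in this text, and other genes of equally high level were not examined as a group. Past a log2 change of 1 were 4 genes, Tpm4, Actg1, Vcl and Actb, which is 10% of the set against 3.66% of all genes tested. Actb did not pass under any of 3 rescalings, at 0.995 after the median ratio and at 0.73 and 0.77 after common sums with and without small RNA and mitochondrial genes. Past 0.5 were 22 genes, or 55% against 12.4%, and intervals were apart for 12, or 30% against 9.19%. These counts are for the FPKM as given and were not made after rescaling to a common sum, which lowers every WT change. On that scale Flna (0.54), Zyx (0.55) and Myl12a (0.55), for example, still passed 0.5. Others, such as Arpc5 (0.42), Lcp1 (0.39) and Tpm1 (0.38), no longer did. No gene of the set was lower past 0.5 or past 1, where 11.0% and 1.28% of all genes were, but after rescaling to a common sum Myl12b was, at -0.51. In RNA from a whole culture, fewer cells of a type and less RNA per cell cannot be told apart.

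The scale of these values needs 1 remark. The FPKM columns do not share a total, and their sum was 604772 and 734144 in untreated and treated WT DCs and 594706 and 612810 in the GEF-H1-/- pair. Rescaling them to a common sum moved the median of all genes in the WT comparison to -0.24 and that of the 40 genes to 0.27. The set was then 0.51 above the median of all genes, against 0.54 after rescaling to the median ratio over genes. Rescaling divides a whole column by a single factor, so it shifts all genes nearly alike. The distance to the median of all genes was thus nearly fixed in advance and is no check on the scale. Besides Myl12b and Tmsb10, the genes under 0 in WT DCs on that scale were Fscn1, Tln1, Capza1, Arpc1b and Actn4. The calls over all genes went from 417 higher and 146 lower to 259 higher and 406 lower under the common sum. Under both scalings 38 of the 40 genes were above the median change of all genes, a count that such a rescaling can hardly alter. All intervals in this text belong to the FPKM as given and were not rescaled.

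The actins and Srf had the largest changes as a group, with a WT median of 1.01 on the log2 scale. Actb (chromosome 5, 142903116 to 142906724) was at 3076 and 6184 FPKM in untreated and treated WT DCs and at 2904 and 3328 FPKM in the GEF-H1-/- pair, a 2.01-fold and a 1.15-fold change. Actg1 (chromosome 11, 120345690 to 120348484) was at 2615, 7395, 2429 and 3378 FPKM in the same order, a 2.83-fold and a 1.39-fold change. For both genes treated WT DCs stood far above the other 3 groups, which lay close together. Their intervals in treated WT DCs were, however, extremely wide, 794 to 11573 FPKM for Actb and 67.9 to 15684 for Actg1, and overlapped all other groups.

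The actin genes resemble each other and have many processed copies in the genome, and reads of 35 bases can fit more than 1 of them. Of all 35-base stretches in GENCODE transcripts of Actg1, 39.6% also occurred in transcripts of other genes, and 20.03% for Actb. These stretches were shared mostly with Gm12715 for Actg1 and with Lrrc58 for Actb. The summed FPKM of the pair was 5691 in untreated and 13579 in treated WT DCs, and 5333 and 6705 in GEF-H1-/- DCs. The ratio of Actg1 to Actb went from 0.850 to 1.20 with the drug in WT DCs and from 0.836 to 1.01 in GEF-H1-/- DCs. What part the division of reads has in this ratio was not tested.

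Srf (chromosome 17, 46546839 to 46556162), the transcription factor itself, was at 18.6 FPKM (14.8 to 22.2) in untreated and 38.1 (29.5 to 46.6) in treated WT DCs, and at 17.1 (13.5 to 20.6) and 21.7 (17.0 to 26.3) in GEF-H1-/- DCs. Its WT change was 2.05-fold, just under the limit of 1 on the log2 scale with 1 FPKM added (0.996, where Actb at 1.01 was just over it), and its GEF-H1-/- change 1.27-fold. The interval of treated WT DCs was apart from those of the other 3 groups, which overlapped one another.

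**Figure D2:**
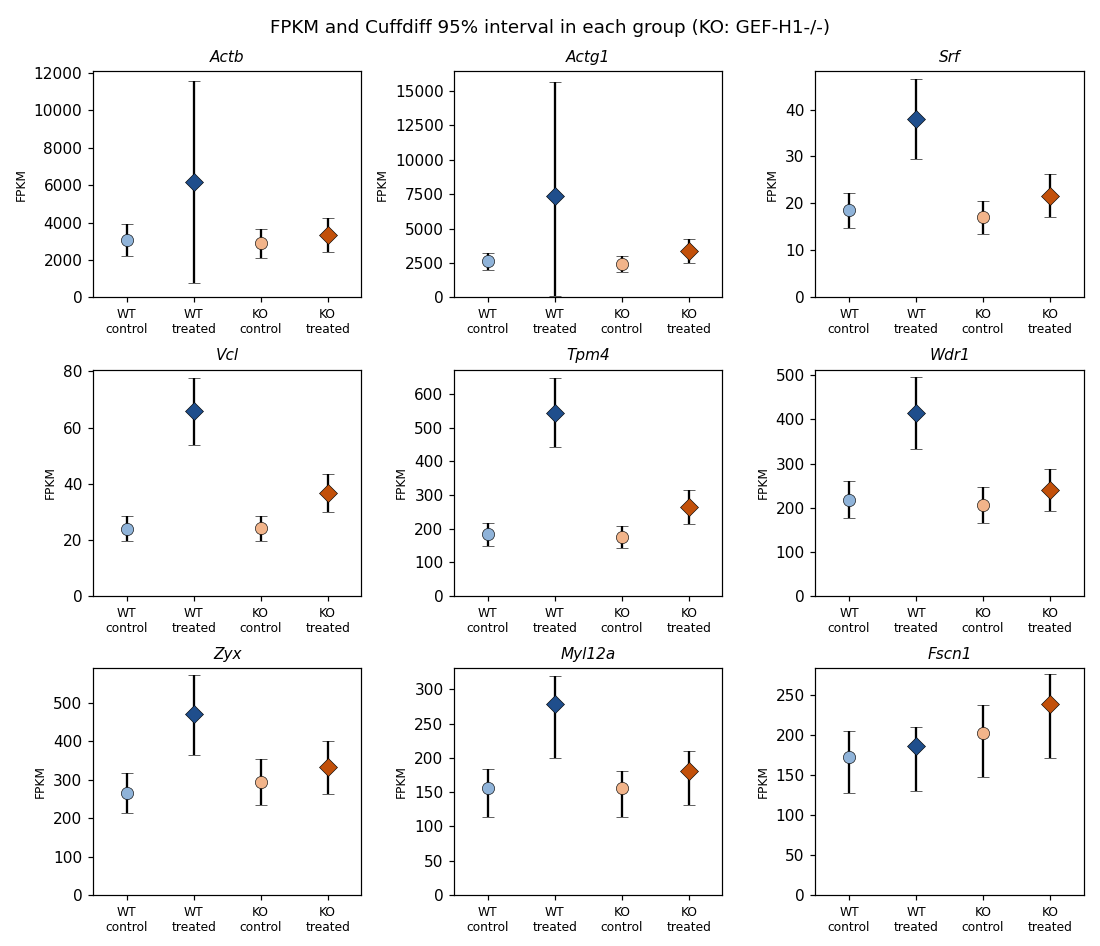
FPKM of 9 genes in each group (circles, control; diamonds, treated; bars, the Cuffdiff 95% interval; KO, GEF-H1-/-), each axis from 0. For Srf, Vcl, Tpm4 and Wdr1 the interval of treated WT DCs is apart from the other 3, for Zyx and Myl12a it is apart from both control groups but not from treated GEF-H1-/- DCs, for Actb and Actg1 it spans them all, and for Fscn1 all 4 overlap.

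Tropomyosins, calponin and transgelin lie along filaments and set which other proteins can bind. Tpm4 (chromosome 8, 72135292 to 72153129), a low-molecular-weight tropomyosin of non-muscle cells, had the largest change of all 40 genes. It was at 183 FPKM (148 to 218) in untreated and 544 (442 to 647) in treated WT DCs, and at 175 (141 to 208) and 265 (215 to 315) in GEF-H1-/- DCs. Treated cells were above control cells outside the intervals in both genotypes, 2.97-fold in WT and 1.51-fold in GEF-H1-/- DCs, and treated WT DCs stood above treated GEF-H1-/- DCs, also without overlap.

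The other tropomyosins went separate ways. Tpm1 was at 17.2, 27.6, 20.7 and 30.0 FPKM in control WT, treated WT, control GEF-H1-/- and treated GEF-H1-/- DCs, so its log2 change was close in both genotypes, 0.65 and 0.51. Tpm3, at 387 and 473 FPKM in WT and 429 and 446 FPKM in GEF-H1-/- DCs, changed little, with log2 values of 0.29 and 0.06. Transcripts of Tpm3 share 26.1% of their 35-base stretches with other genes, chiefly Tpm3-rs7, and those of Tpm4 14.8%.

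Cnn2, encoding calponin 2, was at 212 FPKM in control and 412 in treated WT DCs and at 198 and 227 in GEF-H1-/- DCs. Its log2 change of 0.96 in WT DCs was the largest under 1 after that of Srf, but its intervals were wide (76.9 to 346 and 174 to 650 FPKM) and overlapped, and the table gives it a locus of 672333 bases, far wider than the gene. Tagln2, encoding transgelin 2, was at 701 and 1119 FPKM in WT and at 673 and 715 FPKM in GEF-H1-/- DCs. The log2 changes were 0.67 and 0.09.

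Adhesion and membrane linker genes covered nearly the whole range. Vcl (chromosome 14, 20929433 to 21033673), for vinculin, which reinforces the link between integrins and actin, was at 24.0 FPKM (19.6 to 28.4) in untreated and 65.8 (53.8 to 77.7) in treated WT DCs. In GEF-H1-/- DCs it was at 24.2 (19.8 to 28.6) and 36.7 (30.0 to 43.4). Its control levels were almost equal, both changes were outside the intervals, and the changes were 2.74-fold in WT and 1.52-fold in GEF-H1-/- DCs. Zyx, for zyxin, which marks adhesions under tension, was at 265 and 472 FPKM in WT and 295 and 334 FPKM in GEF-H1-/- DCs, with intervals apart in WT DCs only.

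Tln1, for talin 1, which activates integrins, differed from vinculin and zyxin. It was at 74.3 and 81.3 FPKM in WT and 75.3 and 87.6 FPKM in GEF-H1-/- DCs, with all 4 intervals overlapping. Ezr and Msn, for ezrin and moesin, which anchor filaments to the membrane, had WT log2 changes of 0.47 and 0.58. For Ezr the GEF-H1-/- change of 0.36 was close to this, and for Msn it was 0.28.

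Non-muscle myosin II pulls on filaments and makes the cell cortex contract. Myh9, its heavy chain in these cells, was at 172 FPKM (133 to 218) and 295 (219.7 to 370.4) in control and treated WT DCs and at 171 (132 to 217) and 216 (166 to 275) in GEF-H1-/- DCs. The essential light chain Myl6 was at 1094 and 1627 FPKM in WT and 1117 and 1234 FPKM in GEF-H1-/- DCs, a log2 change of 0.57 and 0.14.

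The neighbouring genes of the regulatory light chains moved apart. Myl12a (chromosome 17, 70993793 to 71002533) was at 156, 278, 156 and 181 FPKM in control WT, treated WT, control GEF-H1-/- and treated GEF-H1-/- DCs. Myl12b (chromosome 17, 70973963 to 70990516) was at 232, 197, 212 and 186 FPKM in the same order, with all intervals overlapping. The log2 change was thus 0.83 and 0.21 for Myl12a and -0.23 and -0.19 for Myl12b, and Myl12a was the higher of the pair in treated WT DCs only. Of the 35-base stretches of Myl12a transcripts 17.2% also occurred in Myl12b, and 19.0% the other way, so some reads fit both.

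Among crosslinkers and bundlers, Flna, for filamin A, which joins filaments into networks, had the largest change. It was at 186 FPKM (141 to 234) and 330 (243 to 418) in WT and at 191 (145 to 241) and 261 (196 to 331) in GEF-H1-/- DCs. The log2 changes were 0.82 and 0.45. Lcp1, for the leukocyte bundler L-plastin, was at 538 and 855 FPKM in WT and 553 and 561 FPKM in GEF-H1-/- DCs. Its log2 change of 0.67 in WT was met by one of 0.02 in GEF-H1-/- DCs, although its WT intervals (426 to 651 and 644 to 1067 FPKM) overlapped slightly and its locus in the table is also wide, at 384037 bases.

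The α-actinin genes, whose products crosslink filaments in parallel, changed less, with log2 values of 0.48 and 0.18 for Actn1 and 0.25 and 0.05 for Actn4. Fscn1, for fascin, a bundler of DC dendrites known to increase with maturation, was at 172 and 187 FPKM in WT and 202 and 239 FPKM in GEF-H1-/- DCs. It was 1 of 4 genes with a smaller change in WT than in GEF-H1-/- DCs, and all its intervals overlapped.

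Of the genes for monomer binding and filament turnover, Wdr1 (chromosome 5, 38526813 to 38561595), for a cofactor of cofilin in taking filaments apart, changed most. It was at 218 FPKM (177 to 260) and 415 (333 to 496) in WT and at 207 (166 to 247) and 240 (193 to 288) in GEF-H1-/- DCs, so that treated WT DCs stood apart from the 3 other groups. Cap1, which recycles actin monomers, was at 335 and 484 FPKM in WT and 304 and 328 FPKM in GEF-H1-/- DCs. Pfn1 (profilin 1, which feeds monomers to growing ends) had log2 changes of 0.50 and 0.04, and Cfl1 (cofilin 1, which severs filaments) of 0.45 and 0.02.

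The thymosins, which hold monomers in reserve, had a different course. Tmsb4x was at 8237, 10336, 6534 and 7083 FPKM in control WT, treated WT, control GEF-H1-/- and treated GEF-H1-/- DCs, a log2 change of 0.33 and 0.12. Tmsb10 was at 1187, 1182, 969 and 988 FPKM, with log2 changes of -0.01 and 0.03. All intervals of each gene overlapped.

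The nucleation and branching genes changed moderately, with medians of 0.43 (WT) and 0.07 (GEF-H1-/-) on the log2 scale. The range in WT DCs ran from 0.21 for Arpc1b to 0.74 for Diap1. Diap1 (now named Diaph1) encodes the formin mDia1, which elongates unbranched filaments. It was at 84.8 FPKM (69.4 to 100.2) and 142 (116 to 168) in WT and at 78.3 (64.1 to 92.5) and 98.4 (80.5 to 116) in GEF-H1-/- DCs, with intervals apart in WT DCs only. Arpc5, a subunit of the Arp2/3 complex that starts branches, was at 357 and 579 FPKM in WT and 348 and 397 FPKM in GEF-H1-/- DCs.

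The other subunits, Actr2, Actr3, Arpc1b, Arpc2 and Arpc3, had WT log2 changes between 0.21 and 0.44, all with overlapping intervals. Coro1a, for coronin 1A, which inhibits and remodels branched networks in leukocytes, was at 586 and 869 FPKM in WT and 610 and 606 FPKM in GEF-H1-/- DCs. Its intervals overlapped between control and treated cells in both genotypes. The capping genes Capza1, Capzb and Capg had WT log2 changes of 0.20, 0.40 and 0.46, and Vasp, for a protein that protects growing ends from capping, of 0.60, against 0.07, -0.02, 0.10 and 0.15 in GEF-H1-/- DCs.

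**Figure D3:**
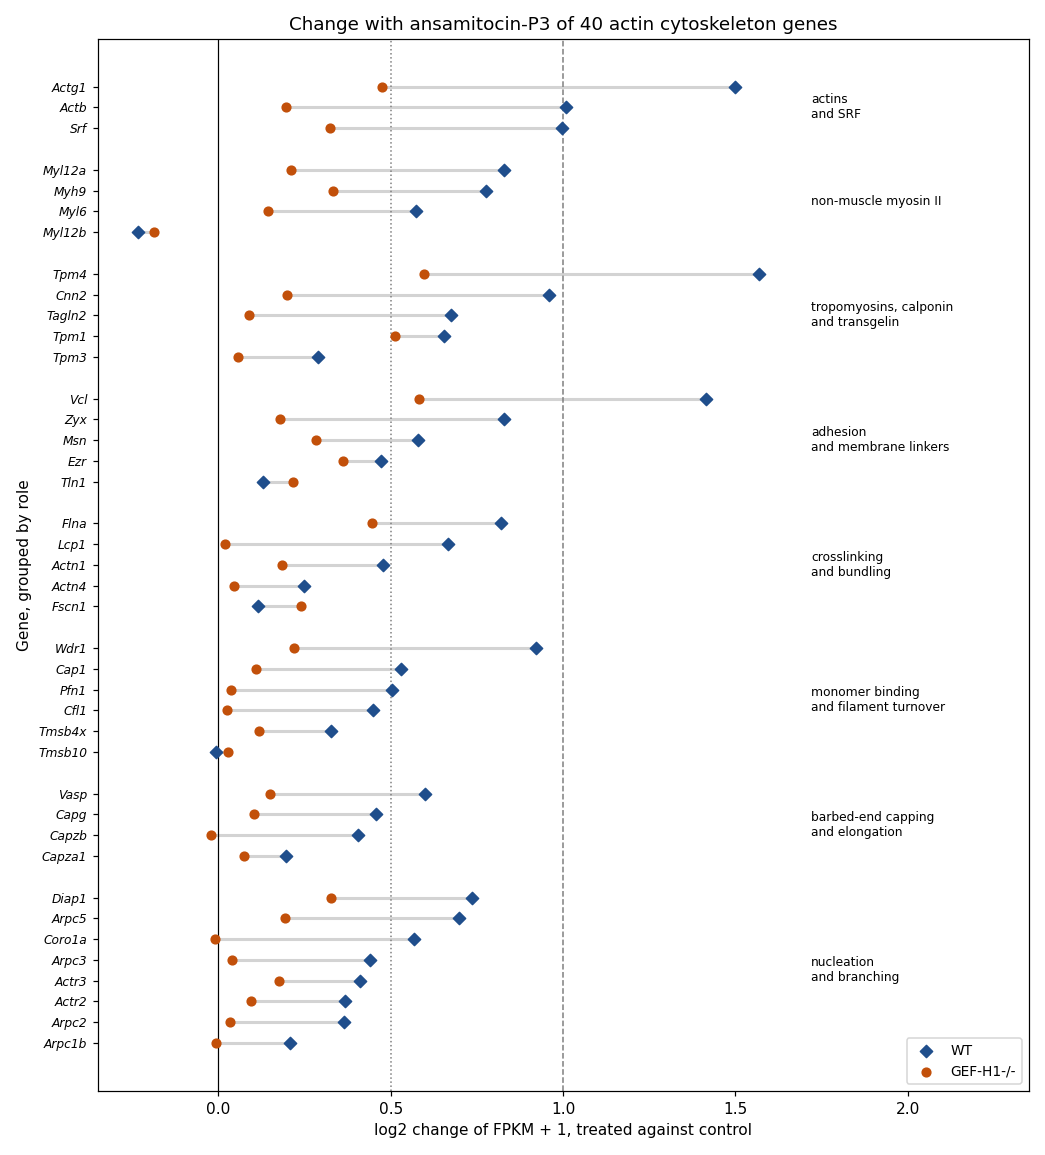
Log2 change of FPKM + 1 with ansamitocin-P3 in WT (blue diamonds) and GEF-H1-/- DCs (orange circles) for the 40 genes, grouped by role, with dotted and dashed lines at 0.5 and 1. The WT symbol lies to the right for 36 of 40 genes (28 after rescaling to a common FPKM sum), the exceptions being Tmsb10, Fscn1, Tln1 and Myl12b.

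In GEF-H1-/- DCs the same drug went with much smaller changes. The FPKM of 36 of the 40 genes was higher in treated than in control cells (90% against 47.6% of all genes), and that of 30 also after rescaling to a common sum, but the median log2 change was only 0.16 (quartiles 0.04 and 0.25). Over all genes tested the median was -0.01. No gene of the set passed 1, where 0.807% of all genes did. The genes past 0.5 were Tpm4 (0.60), Vcl (0.58) and Tpm1 (0.51), 7.5% of the set against 3.85% of all genes, and the intervals were apart for Tpm4 and Vcl, 5% against 2.75%.

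The WT change minus the GEF-H1-/- change had a median of 0.42 over the 40 genes and of 0.01 over all genes tested. It was above 0 for 36 of 40 against 51.6% of all genes. After rescaling to a common sum the medians were 0.18 and -0.19, and 28 of 40 were above 0. The share of all genes above 0 was not computed on that scale. There 36 of 40 lay above the median of all genes, a count that rescaling whole columns can hardly alter. The difference was largest for Actg1 (1.02), Tpm4 (0.97), Vcl (0.83) and Actb (0.81), followed by Cnn2 (0.76), Wdr1 (0.70), Srf (0.67) and Zyx (0.65). Past 1 was Actg1 alone, against 1.36% of all genes, and none after rescaling to a common sum (Actg1 at 0.79). On the FPKM as given, 13 genes passed 0.5, 32.5% against 6.73%. For 33 of the 38 genes with a WT change above 0, the GEF-H1-/- change was under 0.5 of it, and the median share kept was 0.253. This share was not computed over all genes, whose changes also spread less in GEF-H1-/- DCs (quartiles -0.13 and 0.12) than in WT DCs (-0.26 and 0.26). A low share was thus not shown to be particular to these genes. The shares kept were highest for Fscn1 (2.09) and Tln1 (1.67), whose WT changes were small, then for Tpm1 (0.785), Ezr (0.768) and Flna (0.544). Across the 40 genes the changes in both genotypes were related (Pearson's r 0.74, Spearman's coefficient 0.63), as a description over genes that share their libraries.

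**Figure D4:**
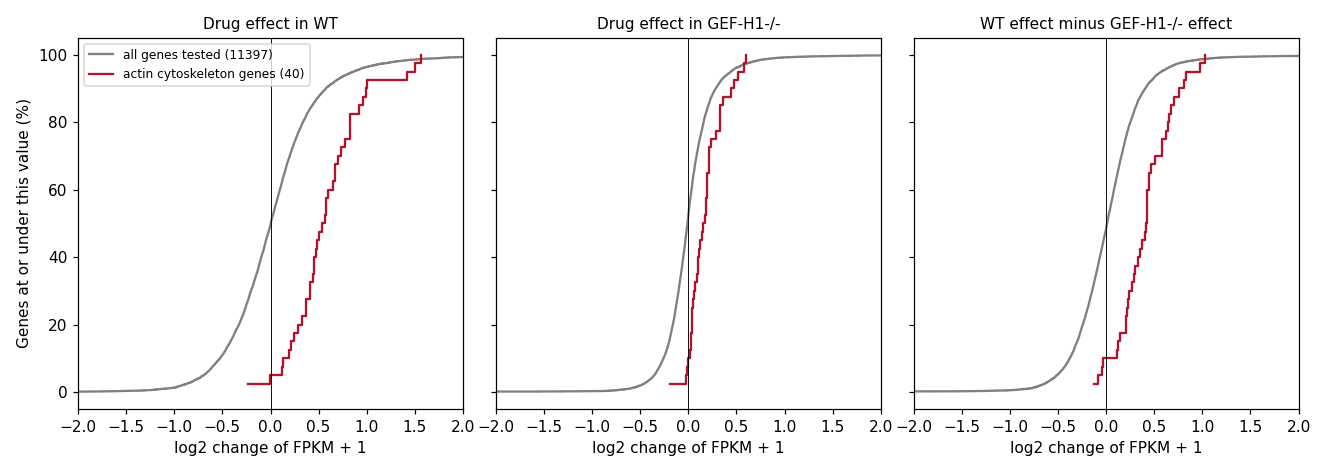
Cumulative share of genes (%) against the log2 change of FPKM + 1 in WT DCs, in GEF-H1-/- DCs and for the WT minus the GEF-H1-/- change, for the 40 actin cytoskeleton genes (red) and all 11397 genes tested (grey), cut at -2 and 2. The red curve lies to the right of the grey one over most of its length in all 3 panels, and reaches its top earlier, with medians of 0.55, 0.16 and 0.42 against 0.00, -0.01 and 0.01.

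Control cells of the 2 genotypes had nearly the same levels of these genes. The median log2 difference, GEF-H1-/- against WT, was -0.00 over the 40 genes and -0.01 over all genes tested. Of the 40 genes 37 lay within 0.25 of equality in either direction. Most genes tested were also close to equality, with quartiles of -0.14 and 0.12, against -0.08 and 0.06 for the set. The exceptions were Tmsb4x (-0.33), Tmsb10 (-0.29) and Tpm1 (0.25). None passed 0.5, where 4.19% of all genes were higher and 2.98% lower in GEF-H1-/- DCs. No intervals were apart, where 2.86% and 1.88% of all genes were apart in these directions. These intervals are wide, so smaller differences in the resting level would not be visible.

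In treated cells 36 of the 40 genes were lower in GEF-H1-/- than in WT DCs, which is 90% against 52.9% of all genes. The median log2 difference was -0.39 against -0.03 over all genes. Past 1 were Actg1 (-1.13) and Tpm4 (-1.04), 5% of the set against 2.06%. After rescaling to a common sum the medians were -0.13 and 0.20, 11 of the 40 genes were higher in GEF-H1-/- DCs, and no gene of the set was lower past 1. On the FPKM as given, 15 genes were lower past 0.5, 37.5% against 9.75%. Intervals were apart for Cap1, Srf, Tpm4, Vcl and Wdr1, 12.5% against 6.73%. These counts were not made after rescaling, and a lower scale of the treated WT column would bring the intervals closer. The 4 genes that were higher in treated GEF-H1-/- DCs before rescaling, as 46.9% of all genes were, were Fscn1 (0.35), Tpm1 (0.11), Tln1 (0.11) and Ezr (0.10). This comparison shares its groups with those above and is another view of the same values.

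Summed over the 40 genes, FPKM was 28068 and 43972 in untreated and treated WT DCs and 26109 and 29047 in the GEF-H1-/- pair. As a share of the FPKM of all genes this was 4.64%, 5.99%, 4.39% and 4.74%, so treated WT DCs also had the highest share. Actb and Actg1 made up 20.3% of the summed FPKM of the set in untreated and 30.9% in treated WT DCs, against 20.4% and 23.1% in GEF-H1-/- DCs, while the part of Tmsb4x went from 29.3% to 23.5% in WT DCs. The intervals of Actb (794 to 11573 FPKM) and Actg1 (67.9 to 15684) in treated WT DCs were very wide. The sum and shares of that group are therefore uncertain.

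Set beside the promoter sequences above, the 5 genes with a CArG box that passed the filter had medians on the log2 scale of 0.996 in WT (0.57 to 1.499) and 0.32 in GEF-H1-/- DCs. The 33 without a box in this window, which leave out Actb and Diap1, had medians of 0.47 and 0.11, and Tpm4, with the largest change of all, was among them. Over all genes tested with a promoter, the 130 with a CArG box had medians of 0.23 and 0.05 in these genotypes, against 0.00 and -0.01 for the others. Of these 130 genes 7.69% passed a log2 change of 1 in WT DCs, against 3.19% of genes without a box. No test was made of these differences.

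The genes around SRF and actin that are outside the set changed less uniformly. Of 7 SRF cofactors above the filter 1 passed a log2 change of 1 in WT DCs, where 3.66% of all genes tested did. This cofactor was Fhl2, a LIM-domain protein that binds SRF, at 0.598, 3.01, 0.660 and 1.01 FPKM in control WT, treated WT, control GEF-H1-/- and treated GEF-H1-/- DCs. Fhl2 was under 1 FPKM in both control groups and passed the filter only through treated cells, so its change rests on values near the floor. The MRTF genes, which couple actin to SRF, did not pass 0.5. Mkl1 was at 33.0 and 27.1 FPKM in WT and 33.1 and 27.5 FPKM in GEF-H1-/- DCs, and Mkl2 at 14.7 and 18.0 FPKM and at 13.5 and 14.9 FPKM. In this list the median WT change was 0.27.

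Immediate-early genes that SRF serves together with other factors were mixed. Of 9 above the filter, Srf included, 2 passed 1 in WT DCs and none in GEF-H1-/- DCs, where 3.66% and 0.807% of all genes tested did. Junb, an AP-1 subunit, was at 96.0 and 253 FPKM in WT and 82.9 and 109 FPKM in GEF-H1-/- DCs. Nr4a1, an orphan nuclear receptor, was at 3.70 and 10.3 FPKM in WT and 1.53 and 1.55 FPKM in GEF-H1-/- DCs, and so was also lower in control GEF-H1-/- DCs. Egr1 was lower in treated WT DCs, with a log2 change of -0.62.

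Of 49 further actin regulators 4 passed 1 in WT DCs and none in GEF-H1-/- DCs, where 3.66% and 0.807% of all genes tested did. The list medians were 0.11 and 0.07. Plek (pleckstrin, a leukocyte adaptor of the cell cortex) had log2 changes of 1.37 and 0.63, Lima1 (a filament-stabilizing LIM protein) of 1.33 and 0.52, and Swap70 (an actin-binding protein of leukocytes) of 1.299 and 0.68. Dstn, for destrin, a filament-severing relative of cofilin, was at 193 FPKM (139 to 223) and 414 (303 to 489) in WT and at 162 (116 to 186) and 182 (132 to 211) in GEF-H1-/- DCs. The log2 changes were 1.10 and 0.17. The treated WT level stood apart from the other 3 groups, as for Srf and Wdr1.

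Cell types rich in actin were also measured, since a culture of bone marrow can hold them. Of 6 neutrophil markers found (of 7 listed) all were above 1 FPKM, and their summed FPKM was 32396 and 38263 in untreated and treated WT DCs and 21768 and 22181 in the GEF-H1-/- pair. Of 5 platelet and megakaryocyte markers all were above 1 FPKM, with sums of 54.5, 90.7, 147 and 160 FPKM in the same order. Both sums were therefore higher in treated than in control WT DCs, on the log2 scale by 0.24 and 0.73, and by 0.03 and 0.12 in GEF-H1-/- DCs, and their part in the changes above was not tested. After rescaling to a common sum these values were -0.04 and 0.45 in WT DCs, so the neutrophil sum turned, and without Ppbp, at 18.0 and 46.0 FPKM in WT DCs, the platelet value was 0.29 (alternatives chosen after the data were seen). In control cells the platelet sum was higher and the neutrophil sum lower in GEF-H1-/- than in WT DCs. S100a8 and S100a9, at 19401 and 10678 FPKM in control WT DCs, dominated the neutrophil sum, and S100a8 lay above its own interval in every group. Their log2 differences between control genotypes were -0.84 and -0.09. Camp (-3.57), Ltf (-1.46) and Ngp (-1.28) were also lower in control GEF-H1-/- DCs, and Elane (1.11) was higher with overlapping intervals. Of 8 fibroblast and smooth muscle markers only Col1a2 reached 1 FPKM, with list sums of 0.670, 0.432, 4.32 and 3.64 FPKM, and the 3 erythroid markers found (of 5 listed) stayed under 1 FPKM. The B cell sum lay between 6.46 and 16.2 FPKM, the T and NK cell sum between 8.43 and 13.4, and the mast cell and basophil sum between 107 and 198. The DC list summed to 5609, 7302, 4716 and 5196 FPKM, and the macrophage list, with 5 of its 6 genes found by symbol, to 190, 152, 233 and 214 FPKM.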

How the data were processed

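RNA from BMDCs was sequenced as stranded, polyadenylated, paired-end libraries with reads of 35 bases. The authors computed FPKM with Cuffdiff (version 1.05 in the submitters' processing notes, which name mm10). The deposited table holds 1 FPKM and 1 interval per gene and group. The aligner and annotation for this table are not given in the sources used here. The columns of WT cells name no genotype and were assigned by elimination, and 0 columns of per-sample values were left unused. Locus starts were raised by 1 to count from 1.

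Genes with a Cuffdiff status other than OK (107 of 23356) were left out, and 11397 with at least 1 FPKM in a group were kept. Log2 ratios of FPKM + 1 were taken in Python 3.11.15 with pandas 2.3.3, for 5 comparisons, and the computation was tested on simulated data. Depth and replicate spread cannot be had from pooled FPKM, so the planned limma branch for single libraries was not run. The 42 genes, their 8 roles and all other lists were chosen with earlier results of these data known. Named genes are Arhgef2, all members, and other listed genes past a log2 change of 1 (at most 5 per list). Other genes named were chosen after their values were seen. One further list of pathway genes is not reported here. Shared 35-base stretches were counted on the same strand in GENCODE M21 transcripts. Alternatives were pseudocounts of 0.1 and 5 FPKM, no filter or 5 FPKM, 3 rescalings, other call rules and, added after the data were seen, leaving out genes that share over 10% of these stretches and other scalings of 2 marker sums.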

Additional observations from a re-analysis of the deposited data

How the results depend on the processing

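The medians of the 40 genes moved by less than 0.1 on the log2 scale under the other pseudocounts and filters and the median ratio, in all 5 comparisons. After rescaling to a common FPKM sum, with or without small RNA and mitochondrial genes, they were 0.27 or 0.31 for the drug in WT DCs, 0.18 or 0.22 for the WT minus the GEF-H1-/- change, and -0.13 or -0.14 for treated GEF-H1-/- against treated WT DCs. Counts of genes on the FPKM as given followed the limit. Past 0.5 in place of 1, 22 genes were higher in WT DCs, 3 in GEF-H1-/- DCs and 13 in the WT minus the GEF-H1-/- change, and 15 were lower in treated GEF-H1-/- than in treated WT DCs. With intervals apart these counts were 12, 2, 7 (with a difference past 0.5) and 5. Neither the counts past 0.5 nor those by intervals were made after a rescaling. Under either rescaling to a common FPKM sum, with or without small RNA and mitochondrial genes, 0 genes passed 1 in the WT minus the GEF-H1-/- change and 0 were lower past 1 in treated GEF-H1-/- DCs, and the cause was not tested. Without the 12 genes that share over 10% of their 35-base stretches (run for the drug in each genotype and for the difference), 1 gene (Vcl) was higher past 1 in WT DCs and 0 in the difference, because Actb, Actg1 and Tpm4 are then left out, while the medians of the remaining 28 genes were 0.57 in WT and 0.18 in GEF-H1-/- DCs. No paired analysis was possible because the columns are pooled over replicates and carry no replicate number, and leaving out a replicate was not run for the same reason.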

Other observations

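Not every actin regulator followed the set. Eps8, for a protein that caps and bundles filaments, was at 43.0 FPKM (35.2 to 50.8) in untreated and 27.4 (22.0 to 32.9) in treated WT DCs, with intervals apart, but at 37.3 (30.2 to 44.4) and 40.5 (32.8 to 48.2) in GEF-H1-/- DCs. Its log2 changes were thus -0.63 and 0.11. It is named because of these values. The muscle actin genes Acta1 and Actc1 stayed under 0.1 FPKM in every group, and Acta2 lay between 0.692 and 1.91 FPKM.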
